A study of Homo sapiens with 24 samples.

Results

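The mRNA levels of 10 genes of the autophagy machinery were followed in IMR90 cells, a line of human lung fibroblasts, in which oncogenic RAS was switched on with or without a hairpin against *HMGA1*. The genes were listed by symbol as ULK1, ULK3, BECN1, WIPI1, ATG5, ATG7, MAP1LC3B, GABARAPL1, SQSTM1 and BNIP3L, and were found by Entrez identifier among the 25702 identifiers of each count file. No measured value enters the list, but it was chosen with earlier results of these data known. All 24 libraries came from cells infected with a retrovirus for ER:HRAS(G12V), a fusion of the oestrogen receptor with oncogenic RAS that 4-hydroxytamoxifen (4OHT) activates, and 6 libraries, labelled biological replicates, belonged to each group. Growing cells also carried the empty MSCV vector and received no agent. shHMGA1 cells carried MSCV miR30 shHMGA1 and received no agent. RIS (RAS-induced senescence) cells carried the empty vector and were kept in 4OHT for 6 days, and RIS+shHMGA1 cells carried the hairpin and had the same treatment. RAS and 4OHT came together in every treated library, so that an effect of 4OHT itself cannot be told apart from that of RAS, and the hairpin was represented by a single construct.

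Autophagy encloses cytoplasm in a double membrane, the autophagosome, and delivers it to the lysosome for degradation. Kinases of the ULK family start the process, a lipid kinase complex around beclin 1 marks the forming membrane with PI3P, to which WIPI proteins bind, and a conjugation cascade run by ATG7 and ATG5 attaches proteins of the ATG8 family (LC3 and GABARAP) to the membrane, where cargo receptors such as p62 and NIX dock. Autophagy is known to be engaged in RAS-induced senescence of human fibroblasts, in which protein turnover feeds the secretory programme. An mRNA level reports the supply of a component and does not measure autophagic flux.

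The target of the hairpin fell in the groups that carried it. *HMGA1*, which encodes an architectural chromatin protein, lay between 639 and 861 CPM (counts scaled to library size, with library sizes normalised by TMM) in growing and between 641 and 786 CPM in RIS libraries. It lay between 54.4 and 143 CPM in shHMGA1 and between 60.0 and 262 CPM in RIS+shHMGA1 libraries. *HMGA1* fell by 2.76 on the log2 scale in shHMGA1 against growing (edgeR's quasi-likelihood test, Benjamini-Hochberg adjusted p or FDR, 1.92e-05) and fell by 2.05 in RIS+shHMGA1 against RIS (FDR 0.00065). Total counts ran from 8698070 to 23103424 per library. Along the first principal component of all tested genes, which held 73.9% of the variance, the library labelled growing 4 scored 77.3 against −84.3 to −57.2 in the other growing libraries, within the range of the RAS-treated ones. The library labelled RIS 2 scored −77.1 against 16.8 to 62.1 in the other RIS libraries, within the range of the growing ones. Both were kept in their labelled groups, and each comparison is given with and without them. Of the 6 fibroblast markers, *VIM* was detected at 3170 to 5700 CPM in every library. The others varied more widely, *COL1A1* from 428 to 23300, *COL1A2* from 300 to 9460 and *COL3A1* from 20.8 to 1900 CPM. *THY1* ran from 107 to 397 and *PDGFRB* from 17.0 to 226 CPM. Summed levels of 3 epithelial, 3 immune and 3 endothelial markers reached at most 1.35, 1.38 and 2.01 CPM. The summed fibroblast markers, which include collagen genes, lay at 13300 to 19500 CPM in shHMGA1 and at 4140 to 5570 CPM in RIS+shHMGA1 libraries. In growing and RIS libraries they lay at 4950 to 39900 and 5490 to 26600 CPM. The part of these sums in the RAS comparisons below was not tested.

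**Figure D1:**
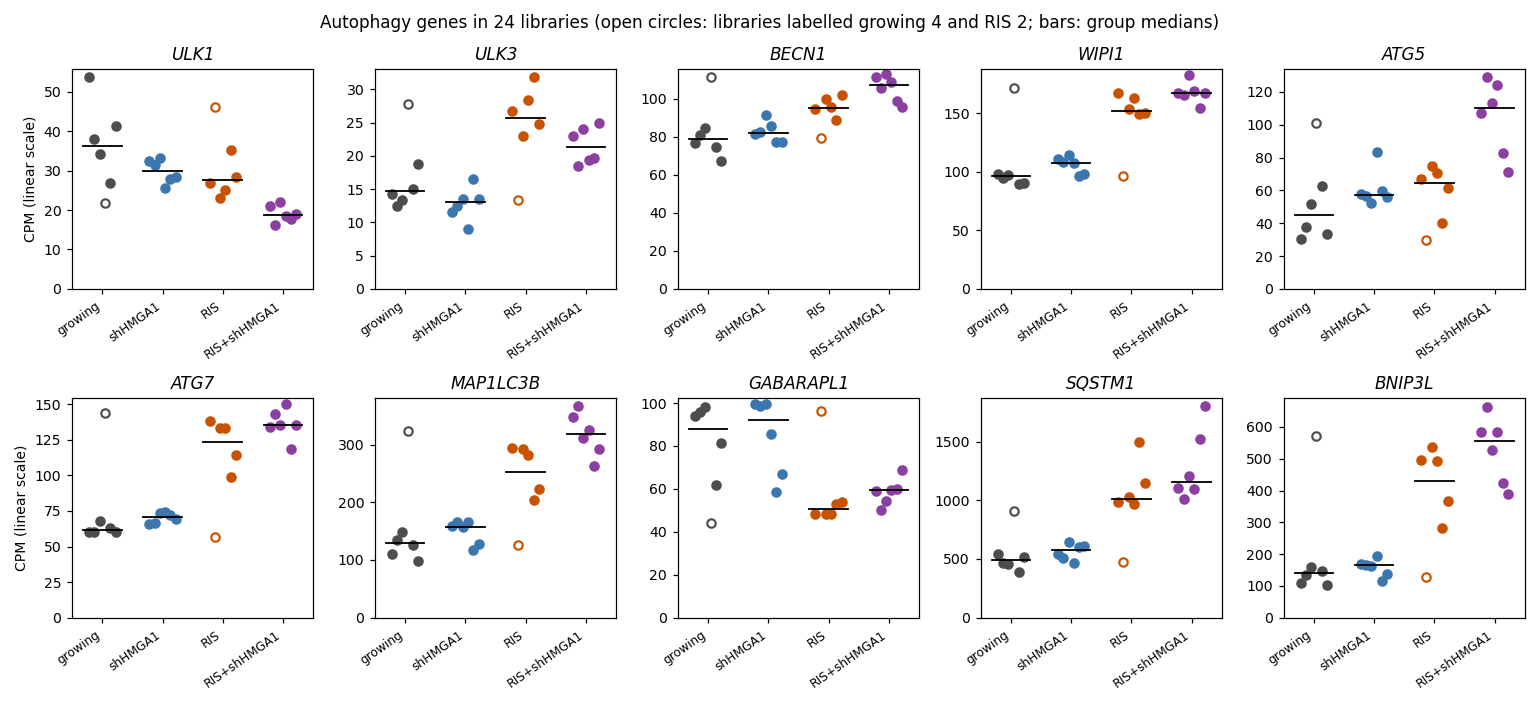
Each panel plots the CPM of a gene (vertical axis, linear, from 0) in the 24 libraries by group (horizontal axis), with bars at the group medians. In 8 panels RIS+shHMGA1 libraries lie wholly above or wholly below shHMGA1 libraries, and the open circles, the libraries labelled growing 4 and RIS 2, lie at or beyond the edge of their own groups in most panels.

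All 10 genes were expressed in every library and passed the filter on low counts. Per kilobase of the canonical transcript, *SQSTM1*, which encodes the cargo receptor p62, had the highest level in every group. In shHMGA1 cells its level was 199 ± 24.3 CPM per kb (SD, n = 6), followed by *MAP1LC3B* at 69.1 ± 9.77, *WIPI1* at 55.4 ± 3.71, *BNIP3L* at 45.7 ± 7.83, *GABARAPL1* at 45.1 ± 9.61 and *BECN1* at 39.1 ± 2.56 CPM per kb. The conjugation genes and the ULK kinases were lower, with *ATG5* at 19.1 ± 3.56, *ATG7* at 13.2 ± 0.717, *ULK1* at 5.59 ± 0.557 and *ULK3* at 4.96 ± 0.976 CPM per kb. Neighbours in this order from *WIPI1* to *BECN1*, and the 2 ULK kinases, differed by less than the sum of their SDs. In RIS+shHMGA1 cells *BNIP3L*, at 153 ± 30.4 CPM per kb, stood beside *MAP1LC3B*, at 148 ± 17.7 CPM per kb, and *ULK1* was lowest at 3.58 ± 0.402 CPM per kb.

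The genes lie apart in the genome (GRCh37, the build called hg19, 1-based, GENCODE annotation). *ULK1* spans chromosome 12 from 132379167 to 132407695 and *GABARAPL1* the same chromosome from 10365057 to 10375727. *ULK3* lies on chromosome 15 from 75128459 to 75135687, *BECN1* on chromosome 17 from 40962152 to 40985367 and *WIPI1* on chromosome 17 from 66417089 to 66453654. *ATG5* spans chromosome 6 from 106493298 to 106773666, *ATG7* chromosome 3 from 11313995 to 11599139, *MAP1LC3B* chromosome 16 from 87417559 to 87438385 and *SQSTM1* chromosome 5 from 179233398 to 179265078. Counts were deposited per gene, with no values per exon or transcript. Protein-coding genes on the opposite strand overlap *SQSTM1* (*MGAT4B* and *MRNIP*), *ATG7* (*VGLL4*), *BECN1* (*CNTD1* and *PSME3*), *WIPI1* (*ARSG*), *ATG5* (*PRDM1*), *MAP1LC3B* (*FBXO31*) and *BNIP3L* (*PNMA2*), and the antisense RNA *GABARAPL1-AS1* overlaps *GABARAPL1*. The libraries were stranded, but the strand setting of the counting is not given in the sources used here, so that reads of these partners may not have been told apart. *MAP1LC3B* also has a near-identical copy, *MAP1LC3B2*, whose group medians lay between 0.701 and 2.22 CPM, and a share of either gene's reads may have been assigned to the other.

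Promoter sequences are shown for the genes whose windows held a searched motif, and these genes differ in their direction below. RefSeq windows (GRCh38.p14) from 250 bases before to 50 after the transcription start matched 9 of the 10 genes, with 12 windows. The 250 bases before the start are printed 5′ to 3′ on the gene's strand, with motif matches in capitals. They lie at chr12:10212627-10212876 (plus strand) for *GABARAPL1*, chr15:74843157-74843406 (minus strand) for *ULK3* and chr16:87392086-87392335 (plus strand) for *MAP1LC3B*.
GABARAPL1: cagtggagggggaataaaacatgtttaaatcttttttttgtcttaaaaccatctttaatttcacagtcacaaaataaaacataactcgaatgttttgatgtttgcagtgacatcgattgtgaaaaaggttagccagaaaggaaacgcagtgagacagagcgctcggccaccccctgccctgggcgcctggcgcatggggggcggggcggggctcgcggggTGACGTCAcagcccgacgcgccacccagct
ULK3: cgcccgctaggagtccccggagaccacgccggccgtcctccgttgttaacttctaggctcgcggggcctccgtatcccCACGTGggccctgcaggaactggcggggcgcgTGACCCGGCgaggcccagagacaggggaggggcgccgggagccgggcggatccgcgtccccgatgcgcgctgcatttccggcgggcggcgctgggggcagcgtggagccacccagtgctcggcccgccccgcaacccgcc
MAP1LC3B: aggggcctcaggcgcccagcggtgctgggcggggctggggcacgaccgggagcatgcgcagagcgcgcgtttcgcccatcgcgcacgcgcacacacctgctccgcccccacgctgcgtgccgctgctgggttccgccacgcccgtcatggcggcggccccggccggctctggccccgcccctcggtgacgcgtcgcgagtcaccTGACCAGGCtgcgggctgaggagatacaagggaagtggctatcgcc
The capitals mark a cAMP response element (TGACGTCA) in *GABARAPL1*, from 30 to 23 bases before the start. In *ULK3* they mark an E-box (CACGTG), from 172 to 167 bases before the start, and then an antioxidant response element (TGACNNNGC), from 140 to 132 bases before it. In *MAP1LC3B* they mark an antioxidant response element from 46 to 38 bases before the start. Both strands were searched. Of all 35116 RefSeq windows of this length, 1.85% held the cAMP response element, 7.26% the E-box and 13.3% the antioxidant response element. The CLEAR-type E-box (TCACGTG, which contains the E-box), the AP-1 site (TGANTCA), the FOXO site (GTAAACA) and the C/EBP site (TTGCNNAA) were held by 3.71%, 7.71%, 3.42% and 10.5% of all windows and by no window of the 9 genes. A match is a run of letters and does not show that a factor binds.

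Cells with the hairpin gave the RAS comparison that holds neither of the libraries that stood apart, although the fit estimated the spread over all 24 libraries. Against shHMGA1, RIS+shHMGA1 cells had higher levels of *ULK3*, *WIPI1*, *ATG7*, *MAP1LC3B*, *SQSTM1* and *BNIP3L* and lower levels of *ULK1*. These 7 of the 10 genes passed both thresholds, that is, the Benjamini-Hochberg adjusted p of edgeR's quasi-likelihood test over all genes tested (FDR) was under 0.01 and the log2 fold change exceeded 0.58 in size. Over all genes 39.1% passed, 2615 higher and 2605 lower. The median log2 fold change was 0.77 over the 10 genes and −0.02 over all 13356 genes tested. The ranges of the 2 groups did not overlap for 8 of the 10 genes, against 43.4% of all genes. With all other libraries but growing 4 and RIS 2 in the fit, 8 genes passed, *ATG5* being added at 0.78 (SE 0.18, FDR 0.00050), against 44.4% of all genes. On the libraries of these 2 groups alone 8 of the 10 genes passed too, beside 5762 of the 12936 genes then tested. Fewer cells of a state and less RNA per cell cannot be told apart in such bulk samples.

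Among the initiating kinases, *ULK1*, which phosphorylates the beclin 1 complex when nutrients are short, was lowest in RIS+shHMGA1 cells. Its lowest, median and highest levels were 21.7, 36.1 and 53.8 CPM in growing, 25.7, 29.8 and 33.1 CPM in shHMGA1, 22.9, 27.7 and 46.2 CPM in RIS, and 16.2, 18.7 and 22.0 CPM in RIS+shHMGA1 libraries. Every RIS+shHMGA1 library lay below every shHMGA1 and every RIS library. *ULK1* fell by 0.64 on the log2 scale against shHMGA1 (SE 0.18, FDR 0.0046). The call was lost when replicates numbered 2, 3, 5 or 6 were left out of all groups, with an FDR between 0.0059 and 0.016 over the 6 such fits. *ULK3*, a related kinase linked to autophagy in senescent cells, went the other way. It lay at 12.5, 14.7 and 27.8 CPM in growing, 9.00, 13.0 and 16.6 CPM in shHMGA1, 13.3, 25.8 and 31.9 CPM in RIS, and 18.5, 21.3 and 25.0 CPM in RIS+shHMGA1 libraries. RIS+shHMGA1 and shHMGA1 libraries did not overlap, and *ULK3* rose by 0.75 (SE 0.20, FDR 0.0028), a call lost without replicates numbered 1, 3 or 6. The kinase genes of the same family thus had opposite signs in this comparison.

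Of the genes for membrane nucleation, *BECN1*, which encodes beclin 1, moved least. It lay at 67.4, 78.8 and 111 CPM in growing, 76.9, 82.0 and 91.4 CPM in shHMGA1, 79.4, 94.9 and 102 CPM in RIS, and 95.6, 107 and 113 CPM in RIS+shHMGA1 libraries. RIS+shHMGA1 libraries were all above shHMGA1 libraries, but the log2 fold change of 0.36 (SE 0.10, FDR 0.0050) was under the fold threshold. *WIPI1*, a PI3P-binding protein of the forming autophagosome, lay at 89.6, 95.9 and 171 CPM in growing, 96.1, 108 and 114 CPM in shHMGA1, 96.3, 152 and 168 CPM in RIS, and 154, 167 and 183 CPM in RIS+shHMGA1 libraries. The highest growing value and the lowest RIS value belonged to the libraries that stood apart, and shHMGA1 and RIS+shHMGA1 did not overlap. *WIPI1* rose by 0.66 (SE 0.14, FDR 0.00079).

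In the conjugation cascade, *ATG7*, the E1-like activating enzyme, rose by 0.95 (SE 0.20, FDR 0.00071) against shHMGA1. Its levels were 59.9, 61.7 and 144 CPM in growing, 65.6, 70.5 and 74.5 CPM in shHMGA1, 56.6, 124 and 138 CPM in RIS, and 118, 135 and 150 CPM in RIS+shHMGA1 libraries. Leaving aside growing 4 and RIS 2, no treated library overlapped an untreated one. *ATG5*, which joins ATG12 to form the E3-like part of the cascade, varied more between replicates. It lay at 30.5, 44.8 and 101 CPM in growing, 52.1, 57.2 and 83.5 CPM in shHMGA1, 29.9, 64.3 and 74.6 CPM in RIS, and 71.4, 110 and 129 CPM in RIS+shHMGA1 libraries. The shHMGA1 library of replicate 4 lay within the RIS+shHMGA1 range, and the log2 fold change of 0.78 (SE 0.26, FDR 0.012) missed the FDR threshold.

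The 2 ATG8-family genes had opposite signs. *MAP1LC3B*, which encodes LC3B, the usual marker of autophagosomes, lay at 98.7, 130 and 323 CPM in growing, 117, 158 and 166 CPM in shHMGA1, 125, 252 and 293 CPM in RIS, and 262, 319 and 368 CPM in RIS+shHMGA1 libraries. It rose by 1.101 (SE 0.24, FDR 0.00076) against shHMGA1, a 2.15-fold increase, without overlap of the groups. *GABARAPL1*, a GABARAP-type member that can be transcribed under FOXO factors, lay at 44.2, 87.9 and 97.9 CPM in growing, 58.5, 92.1 and 99.7 CPM in shHMGA1, 48.2, 50.6 and 96.2 CPM in RIS, and 50.4, 59.4 and 68.6 CPM in RIS+shHMGA1 libraries. In shHMGA1 cells 4 libraries lay between 85.5 and 99.7 CPM, and replicates 5 and 6, at 58.5 and 67.1 CPM, lay within the RIS+shHMGA1 range. The log2 fold change of −0.53 (SE 0.20, FDR 0.022) did not pass. Both genes hold a motif in the windows printed above, an antioxidant response element in *MAP1LC3B* and a cAMP response element in *GABARAPL1*.

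The cargo receptors had the largest changes of the 10 genes. *SQSTM1* lay at 392, 491 and 913 CPM in growing, 467, 574 and 649 CPM in shHMGA1, 472, 1009 and 1499.9 CPM in RIS, and 1009, 1159 and 1806 CPM in RIS+shHMGA1 libraries. It rose by 1.19 (SE 0.22, FDR 0.00032), or 2.29-fold, against shHMGA1. Every RIS+shHMGA1 library lay above every growing and every shHMGA1 library, the library labelled growing 4 included. *BNIP3L*, which encodes NIX, a mitochondrial receptor for the removal of mitochondria, spans chromosome 8 from 26240570 to 26363152 (GRCh37). It lay at 102, 141 and 571 CPM in growing, 117, 164 and 195 CPM in shHMGA1, 128, 431 and 538 CPM in RIS, and 389, 555 and 664 CPM in RIS+shHMGA1 libraries. It rose by 1.74 (SE 0.37, FDR 0.00066), or 3.35-fold, with the groups fully apart. *WIPI1*, *ATG7*, *MAP1LC3B*, *SQSTM1* and *BNIP3L* kept this call in all 6 fits that left out a replicate number.

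**Figure D2:**
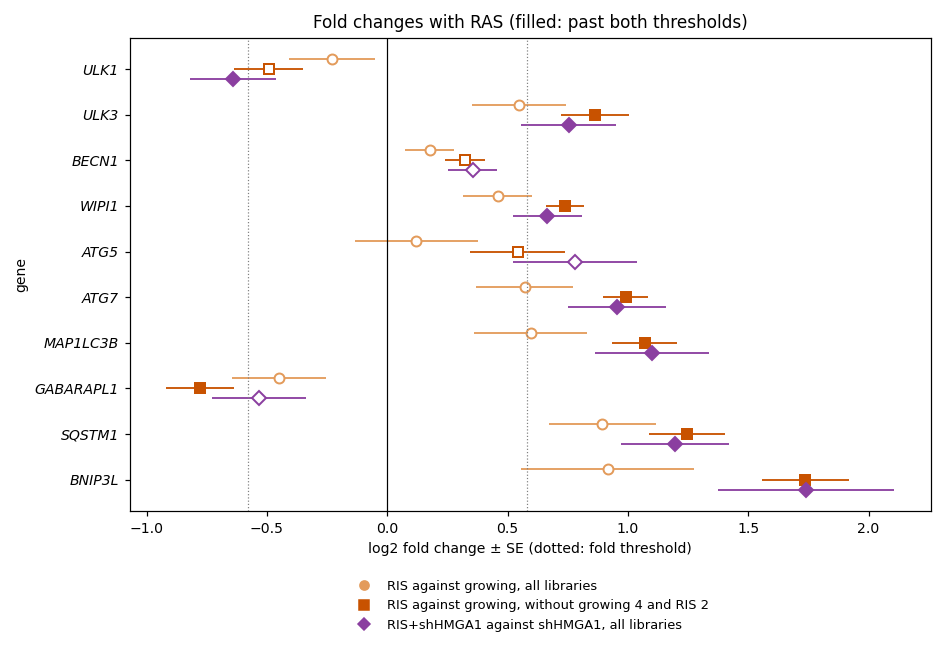
The plot gives the log2 fold change (horizontal axis, bars are SEs) of each gene for RIS against growing with and without the libraries labelled growing 4 and RIS 2, and for RIS+shHMGA1 against shHMGA1, with filled symbols past both thresholds. Without these libraries, edgeR's test called 7 genes in RIS against growing, 6 of them higher, and with them 0, where 7 had an unadjusted p under 0.05, DESeq2 called 1 and voom with sample weights 8. Over all genes edgeR's test called 39.7% without these libraries, and with them DESeq2 called 829 and voom 6317 of 13356.

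RIS against growing asks for the effect of RAS in cells with the empty vector, and here the libraries labelled growing 4 and RIS 2 decided the outcome. With all libraries no gene of the 10 passed in edgeR's test, although 7 had an unadjusted p under 0.05, DESeq2 called 1 and voom with sample weights called 8. Over all 13356 genes tested, 0.0% passed, 4407 had an unadjusted p under 0.05, DESeq2 called 829 and voom called 6317. The log2 fold changes had the same signs as with the hairpin, from −0.45 (SE 0.20) for *GABARAPL1* and −0.23 (SE 0.18) for *ULK1* to 0.89 (SE 0.22, FDR 0.018) for *SQSTM1* and 0.92 (SE 0.36) for *BNIP3L*. Leaving out growing 4 alone gave 6 calls, beside 3420 of the 13450 genes then tested. Leaving out RIS 2 alone gave 4 calls, beside 2579 of the 13435 genes then tested. Without both, 7 of the 10 genes passed, against 39.7% of all genes. *BNIP3L* then rose by 1.74 (SE 0.18, FDR 1.72e-08), *SQSTM1* by 1.25 (SE 0.16, FDR 3.41e-07), *MAP1LC3B* by 1.07 (SE 0.14, FDR 3.84e-07), *ATG7* by 0.99 (SE 0.09, FDR 3.09e-09), *ULK3* by 0.86 (SE 0.14, FDR 1.24e-05) and *WIPI1* by 0.74 (SE 0.08, FDR 2.32e-08). *GABARAPL1* fell by 0.78 (SE 0.14, FDR 5.17e-05), its 5 RIS libraries lying at 48.2 to 54.0 CPM and the 5 growing ones at 61.6 to 97.9 CPM. *ULK1* at −0.49 (SE 0.14), *BECN1* at 0.32 (SE 0.08) and *ATG5* at 0.54 (SE 0.20) stayed under the fold threshold. The ranges of RIS and growing libraries overlapped for all 10 genes with the 2 libraries, and without them for *ULK1* and *ATG5* alone, the other 8 being apart against 35.2% of all genes. *ULK3*, *WIPI1*, *ATG7*, *MAP1LC3B*, *SQSTM1* and *BNIP3L* were thus called higher both in RIS against growing without growing 4 and RIS 2 and in RIS+shHMGA1 against shHMGA1, which share no library. The share of all genes called in both was not computed. Singly, 39.7% and 39.1% of all genes were called in the 2 comparisons, so that joint calls need not be particular to these genes. The 2 libraries were left out after they were seen to lie with the opposite group, and the values without them depend on that choice. Each fit also took its spread and normalisation from libraries of all 4 groups.

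RIS+shHMGA1 against growing joins both changes, and 7 of the 10 genes passed against 45.9% of all genes. *SQSTM1* rose by 1.24 (SE 0.22, FDR 0.00022), *BNIP3L* by 1.37 (SE 0.36, FDR 0.0024), *MAP1LC3B* by 1.02 (SE 0.24, FDR 0.0010), *ATG5* by 0.99 (SE 0.26, FDR 0.0023), *ATG7* by 0.84 (SE 0.20, FDR 0.0013) and *WIPI1* by 0.65 (SE 0.14, FDR 0.00076). *ULK1* fell by 0.92 (SE 0.18, FDR 0.00035). When replicates numbered 1 were left out of all groups, 3 of the 7 calls were left, those of *ULK1*, *WIPI1* and *SQSTM1*. That fit called 3058 of the 13374 genes tested. Without growing 4 and RIS 2 the same 7 genes passed, against 56.9% of all genes, *BNIP3L* at 2.02 (SE 0.18) and *ULK1* at −1.03 (SE 0.14). The groups were then apart for 8 genes, against 54.6% of all genes, *ULK3* and *GABARAPL1* overlapping.

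**Figure D3:**
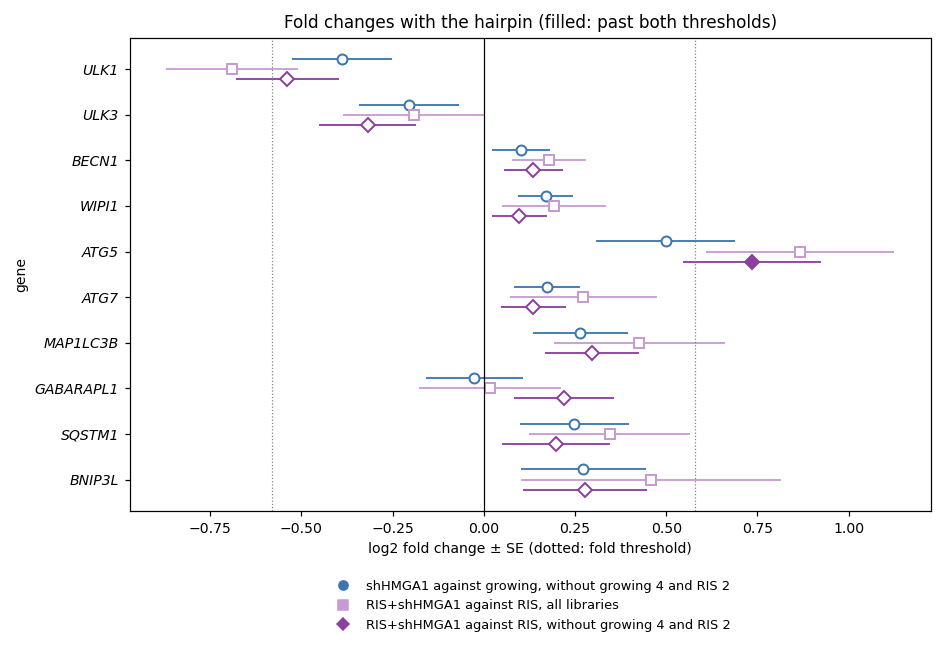
The plot gives the log2 fold change (horizontal axis, bars are SEs) of each gene with the hairpin, in untreated cells and in RAS-treated cells, with filled symbols past both thresholds. Untreated cells are plotted without the libraries labelled growing 4 and RIS 2 and RAS-treated cells with and without them, and in each of these *ULK1* lies furthest left and *ATG5* furthest right, with *ATG5* in RAS-treated cells without the 2 libraries filled.

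The hairpin alone was compared in untreated cells and in RAS-treated cells. In untreated cells no gene of the 10 passed in edgeR's test or in DESeq2, and none had an unadjusted p under 0.05, beside 0.27% of all genes called. Log2 fold changes ran from −0.40 (SE 0.20) for *ULK3* to 0.21 (SE 0.26) for *ATG5*. Without growing 4 and RIS 2 again no gene passed, against 2.59% of all genes, with 3 at an unadjusted p under 0.05. The values of *BECN1*, *WIPI1*, *ATG7*, *MAP1LC3B* and *BNIP3L* changed from negative to positive, and that of *GABARAPL1* from positive to negative.

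In RAS-treated cells *ULK1* and *ATG5* had the largest differences with the hairpin. *ULK1* was lower in every RIS+shHMGA1 library, at 16.2 to 22.0 CPM, than in every RIS library, at 22.9 to 46.2 CPM, the only member whose groups were apart beside 13.2% of all genes. Its log2 fold change of −0.69 (SE 0.18, FDR 0.013) missed the FDR threshold, and without the 2 libraries its value of −0.54 (SE 0.14, FDR 0.0060) missed the fold threshold. *ATG5* was at 0.87 (SE 0.26, FDR 0.020) with all libraries and rose by 0.74 (SE 0.19, FDR 0.0054) without the 2. No gene of the 10 passed with all libraries in edgeR's test, beside 2.55% of all genes, 2 had an unadjusted p under 0.05 and DESeq2 called 2. Over all 13356 genes tested, 6647 had an unadjusted p under 0.05 and DESeq2 called 1533. With a block for the replicate number, edgeR's test called 2 of the 10, beside 1637 genes in all. With growing 4 alone left out, *ULK1* and *ATG5* both passed (FDR 0.0027 and 0.0034), beside 2555 of the 13450 genes then tested. Without the 2 libraries 1 passed, *ATG5*, against 12.5% of all genes. The 5 genes that kept their call in RIS+shHMGA1 against shHMGA1 whichever replicate was left out did not pass here. Their log2 fold changes were between 0.19 and 0.46 with all libraries, and without the 2 libraries they were 0.28 (SE 0.17) for *BNIP3L*, 0.20 (SE 0.15) for *SQSTM1*, 0.30 (SE 0.13) for *MAP1LC3B*, 0.14 (SE 0.09) for *ATG7* and 0.10 (SE 0.08) for *WIPI1*.

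Whether the RAS difference itself depended on the hairpin was tested by the interaction. In edgeR's test no gene of the 10 passed and none had an unadjusted p under 0.05, and DESeq2 called none. Over all genes 0.0% passed, 1371 had an unadjusted p under 0.05 and DESeq2 called 5. Values ran from −0.41 (SE 0.25) for *ULK1* to 0.83 (SE 0.50) for *BNIP3L*. Without growing 4 and RIS 2 they ran from −0.15 (SE 0.20) for *ULK1* to 0.25 (SE 0.19) for *GABARAPL1*, with *BNIP3L* at 0.00 (SE 0.24), again with no gene passing beside 0.00745% of all genes. With all libraries the values of *ULK1* and *BNIP3L* exceeded their errors and did not pass. A dependence on the hairpin of that size could thus go undetected.

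A list of 57 other autophagy genes was read for the same comparisons, and 54 passed the filter. *MAP1LC3C*, *VAMP8* and *DAPK1* did not. In RIS+shHMGA1 against shHMGA1, 10 of the 54 rose and 7 fell, 17 in all, with a median log2 fold change of 0.21. That is a smaller share than the 39.1% of all genes called. The calls of *ATG14*, *NRBF2*, *WIPI2*, *RAB7A* and *TFEB* were kept in all 6 fits that left out a replicate number, and each of the other 12 was lost in at least 1. In RIS+shHMGA1 against growing 11 rose and 12 fell, which does not exceed the 45.9% of all genes called, *ATG3*, the E2-like enzyme for ATG8 proteins, being among the former with a rise of 0.90 (SE 0.22, FDR 0.0016). In RIS against growing 0 of the 54 passed with all libraries in edgeR's test and in DESeq2, 13 having an unadjusted p under 0.05 in edgeR, while voom with sample weights called 19. Over all 13356 genes tested, voom called 6317. Without growing 4 and RIS 2, 10 rose and 7 fell in edgeR's test, against 39.7% of all genes called.

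**Figure D4:**
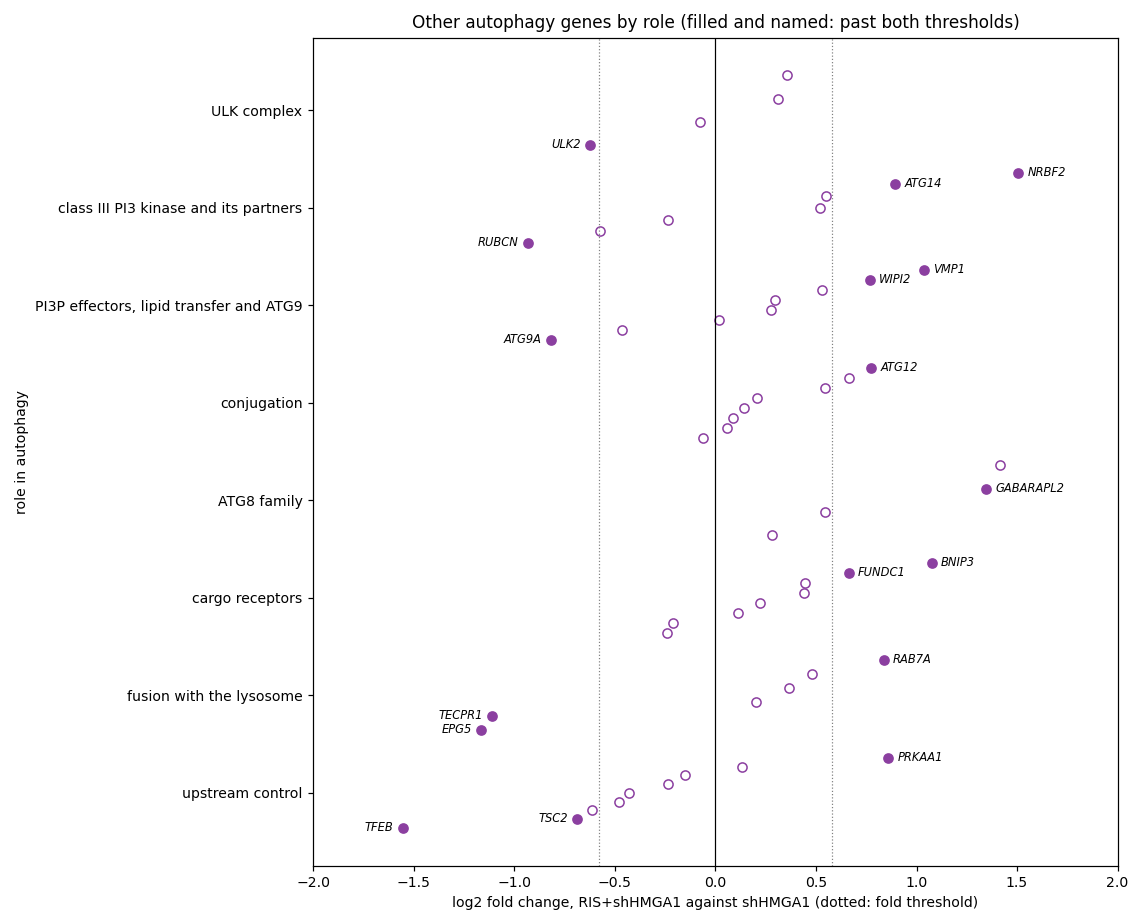
Each point is the log2 fold change (horizontal axis) of an autophagy gene outside the 10, in RIS+shHMGA1 against shHMGA1, on a line for its role (vertical axis), with named, filled points past both thresholds. The genes past the thresholds in conjugation (1), the ATG8 family (1) and the cargo receptors (2) lie to the right. Genes past the thresholds to the left include *TFEB*, *TSC2*, *EPG5*, *TECPR1*, *RUBCN*, *ATG9A* and *ULK2*.

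*NRBF2*, which stabilises the beclin 1 complex, had medians of 26.2, 30.2, 53.3 and 98.4 CPM in growing, shHMGA1, RIS and RIS+shHMGA1 libraries and rose by 1.51 (SE 0.34, FDR 0.00099) against shHMGA1. *ATG14*, which directs the complex to autophagy, rose by 0.89 (SE 0.16, FDR 0.00027), and *RUBCN*, which encodes the inhibitor Rubicon, fell by 0.93 (SE 0.24, FDR 0.0029). Of the 7 listed genes of the complex, 2 rose and 1 fell, beside 39.1% of all genes called in this comparison. That share also stands beside the counts by role in the next paragraph, and no test of a role was made.

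Of 8 genes for PI3P effectors, lipid transfer and ATG9, 2 rose and 1 fell. *VMP1*, a scramblase of the endoplasmic reticulum, rose by 1.03 (SE 0.29, FDR 0.0046) and *WIPI2* by 0.77 (SE 0.14, FDR 0.00032), while *ATG9A*, the transmembrane lipid scramblase, fell by 0.82 (SE 0.23, FDR 0.0041). In conjugation 1 of 8 passed, *ATG12*, the partner of ATG5, which rose by 0.77 (SE 0.24, FDR 0.0092). In the ATG8 family 1 of the 4 tested passed, *GABARAPL2*, which rose by 1.35 (SE 0.35, FDR 0.0029), opposite in sign to its relative *GABARAPL1*. The cargo receptors *BNIP3* and *FUNDC1*, both for mitochondria like *BNIP3L*, rose by 1.07 (SE 0.31, FDR 0.0052) and 0.66 (SE 0.20, FDR 0.0063), and the other 6 of the 8 did not pass.

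In fusion with the lysosome, *EPG5*, a tether of autophagosome and lysosome, fell by 1.16 (SE 0.31, FDR 0.0030) and *TECPR1*, another tether, by 1.11 (SE 0.28, FDR 0.0025), while the small GTPase gene *RAB7A* rose by 0.84 (SE 0.17, FDR 0.00054). Upstream, *TFEB*, which encodes a transcription factor for lysosomal and autophagy genes, fell by 1.56 (SE 0.26, FDR 0.00022), with medians of 4.77, 4.19, 2.95 and 1.31 CPM in growing, shHMGA1, RIS and RIS+shHMGA1 libraries. *TSC2*, an inhibitor of mTORC1, fell by 0.69 (SE 0.19, FDR 0.0043), and *PRKAA1*, a catalytic subunit of AMPK, rose by 0.86 (SE 0.22, FDR 0.0022). *ULK2*, the closest relative of *ULK1*, fell by 0.62 (SE 0.13, FDR 0.00079). Against growing, 6 of the 9 tested upstream genes fell, where 23.9% of all genes did, and no test of the group was made. Among the 6 were *FOXO3*, which fell by 1.00 (SE 0.18, FDR 0.00024), *MTOR*, which fell by 0.92 (SE 0.21, FDR 0.00093), and *TFE3*, a relative of *TFEB*, which fell by 0.69 (SE 0.15, FDR 0.00068). *PRKAA1* was the 1 gene that rose. The 6 upstream genes that fell were *TFEB*, *TFE3*, *FOXO3*, *TSC2*, *MTOR* and *RPTOR*. They hold activators of autophagy, such as *TFEB*, and *MTOR*, an inhibitor, alike.

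The genes for 2 transcription factors differed with the hairpin. *TFEB* fell by 1.16 (SE 0.26, FDR 0.0090) and *FOXO3* by 0.78 (SE 0.18, FDR 0.0099) in RIS+shHMGA1 against RIS, the only listed genes that passed there in edgeR's test with all libraries, 2 of 54 beside 2.55% of all genes. Both calls were lost without replicates numbered 1, 2, 3, 5 or 6, without RIS 2 alone and without a filter on low counts, *FOXO3* was lost under RLE and *TFEB* on the libraries of the contrast. Over the fits without a replicate number the FDR ran from 0.0033 to 0.070 for *TFEB* and from 0.0025 to 0.068 for *FOXO3*. *FOXO3* medians were 16.2 and 14.2 CPM in growing and RIS and 9.15 and 7.82 CPM in shHMGA1 and RIS+shHMGA1 libraries. Without growing 4 and RIS 2, 8 of the 54 passed in RIS+shHMGA1 against RIS, 5 higher and 3 lower, beside 12.5% of all genes, among them *GABARAPL2* at 0.84 (SE 0.23), *VMP1* at 0.79 (SE 0.20), *TFEB* at −1.01 (SE 0.24) and *FOXO3* at −0.70 (SE 0.15). In shHMGA1 against growing, 0 of the 54 passed with all libraries in edgeR's test, where 6 had an unadjusted p under 0.05 and DESeq2 called 1. Over all genes edgeR's test called 36 and DESeq2 98. Without the 2 libraries *FOXO3* fell by 0.89 (SE 0.14, FDR 0.00038) and *EPG5* by 0.69 (SE 0.16, FDR 0.0086), and no other listed gene passed, beside 2.59% of all genes. *FOXO3* was therefore lower with the hairpin both without and with RAS once these libraries were left out.

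Across the 24 libraries the 10 genes fell into sets by the sign of their correlation. These values are a description, since the libraries share their groups, their normalisation and the libraries that stood apart. *MAP1LC3B* and *BNIP3L* were most alike (Pearson r of log2 CPM, 0.990), followed by *ATG7* with *BNIP3L* (0.978) and *WIPI1* with *ATG7* (0.974). *ULK1* was opposed to *ATG5* (−0.933), and *GABARAPL1* to *ULK3* (−0.825). Among 10936 genes compared, those most like *MAP1LC3B* were *ATP6V1H*, a subunit of the lysosomal proton pump (0.991), and *BNIP3L* (0.990). *TFE3* was among the 3 genes most like *ULK1* (0.976, after *SEPTIN9*, 0.984). The gene most like *SQSTM1* was *MRNIP* (0.987), which overlaps it on the opposite strand, followed by *SMOX* (0.966) and *GDF15* (0.960). The part of shared reads in the likeness of *SQSTM1* and *MRNIP* was not tested. *ATG5* was most like *ASNSD1* (0.993), *ATG7* like *SQOR* (0.992), *WIPI1* like *SYT7* (0.988), *BECN1* like *OSCP1* (0.968), *ULK3* like *PES1* (0.970), *GABARAPL1* like *SORT1* (0.923) and *BNIP3L* like *GRIP1* (0.991).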

How the data were processed

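The authors mapped reads to hg19 with STAR 2.5.0b, filtered low mapping quality and adapters with Cutadapt 1.10.0, counted reads per gene with Rsubread and deposited raw counts for 25702 Entrez identifiers per library, without normalisation. The annotation, the Rsubread version and the strand setting are not given in the sources used here.

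Counts of the 24 libraries (8698070 to 23103424 per library) were tested with edgeR 4.0.16 in R 4.3.3. Genes were filtered with filterByExpr by group (13356 left), library sizes normalised by TMM, and group means fitted over all libraries by quasi-likelihood. Thresholds were those of the study's methods, FDR under 0.01 and absolute log2 fold change over 0.58. SEs are the absolute log2 fold change divided by the square root of F. Levels are CPM, and a prior count of 2 was added for log2 CPM. Groups were taken from the labels. The labels call the libraries biological replicates, and p-values measure the spread between them. The lowest count of the 10 genes in any library was 100, so that counting error is small. Within groups, no pair of libraries agreed within sampling noise.

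The 10 genes, the 57 other autophagy genes and the motifs were chosen with earlier results of these data known. Of the 57, those named were up to the 8 largest changes in each direction past the thresholds in RIS+shHMGA1 against growing or shHMGA1, and all past them in the hairpin comparisons. *TFE3*, *WIPI2* and *RPTOR*, outside this rule, the genes named without growing 4 and RIS 2, and the values singled out were chosen after their values were seen. Genes most like a member were the 3 with the highest r. Alternatives were DESeq2 1.42.0, RLE, no filter, at least 1 CPM in 6 samples, a replicate block, libraries of the contrast only, voom with sample weights (limma 3.58.1), FDR 0.05 and leaving out each replicate number. Leaving out growing 4 and RIS 2, and the lengths and GC contents below, were chosen after seeing the data. Scripts were tested on simulated data.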

Additional observations from a re-analysis of the deposited data

Results flagged for a closer look

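A library's gap to its nearest neighbour in log2 CPM (or in total count), divided by the range of its group, was compared with Dixon's critical value for 6 samples in 48 tests (10 genes, *HMGA1* and the total count in 4 groups). The value was exceeded 11 times, where about 1 in 20 groups, or 2.4 here, would exceed it by chance. In the library labelled growing 4 the gap ratios were 0.859 for *WIPI1*, 0.862 for *ATG7*, 0.652 for *MAP1LC3B* and 0.737 for *BNIP3L*, all as the highest of the growing libraries. In the library labelled RIS 2 they were 0.788 for *WIPI1*, 0.629 for *ATG7* and 0.625 for *ULK3*, as the lowest of the RIS libraries, and 0.837 for *GABARAPL1*, as the highest. These are the libraries that stood apart on the first principal component of all genes. The shHMGA1 library of replicate 4 was highest for *ATG5*, with a ratio of 0.709. Total counts stood apart for growing replicate 1, with a ratio of 0.796, and RIS replicate 3, with a ratio of 0.684.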

How the results depend on the processing

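Of the log2 fold changes of the 10 genes recomputed under the alternatives, 827 kept their direction and their side of the thresholds, 55 newly passed, 16 no longer passed and 52 changed sign. No gene of the 10 that passed a threshold changed sign under any of them, and RLE normalisation changed no count of the 10 genes. The cause of the changes was not tested. The counts of called genes are given in the order FDR 0.05, DESeq2, voom, and leaving out growing 4 and RIS 2, then as a range over the fits that left out a replicate number, growing 4 alone or RIS 2 alone.

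Over all genes, RIS against growing (0) gave 1537, 829, 6317 and 5331, and 0 to 3420. shHMGA1 against growing (36) gave 85, 98, 845 and 348, and 5 to 67, with 23 without a filter and 5 on the libraries of the contrast. RIS+shHMGA1 against RIS (341) gave 2898, 1533, 1856 and 1677, and 14 to 2555, with 189 without a filter. The interaction (0) gave 2, 5, 7 and 1, and 0 to 1. Over the latter fits RIS+shHMGA1 against growing (6137) gave 3058 to 7543 and RIS+shHMGA1 against shHMGA1 (5220) gave 3037 to 5777. Of the 10 genes, RIS against growing (0) called 1, 1, 8 and 7, and 0 to 6, and RIS+shHMGA1 against RIS (0) called 2, 2, 1 and 1, and 0 to 2. RIS+shHMGA1 against growing (7) called 3 to 8 over these fits.

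Of the 54 other autophagy genes, RIS against growing (0) called 19 with voom and 17 without the 2 libraries, and 0 to 9. shHMGA1 against growing (0) called 1, 1, 5 and 2, and 0 to 1. RIS+shHMGA1 against RIS (2) called 17, 7, 8 and 8, and 0 to 16, with 1 under RLE, 0 without a filter, where 31 had an unadjusted p under 0.05, and 1 on the libraries of the contrast. RIS+shHMGA1 against growing (23) called 11 to 29 and RIS+shHMGA1 against shHMGA1 (17) called 7 to 21 over the leave-out fits.

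Signs changed only for values that had not passed. In shHMGA1 against growing, log2 fold changes with voom, without the 2 libraries, and lowest and highest over the leave-out fits were 0.057, 0.10, −0.034 and 0.10 for *BECN1*, 0.17, 0.17, −0.062 and 0.17 for *WIPI1*, 0.15, 0.17, −0.16 and 0.17 for *ATG7*, 0.23, 0.26, −0.17 and 0.26 for *MAP1LC3B*, −0.0249, −0.0257, −0.044 and 0.16 for *GABARAPL1*, and 0.23, 0.27, −0.50 and 0.27 for *BNIP3L*. *BECN1* was at 0.00064 in DESeq2, and *SQSTM1* ran from −0.056 to 0.28. In the interaction, voom and the fit without the 2 libraries gave −0.16 and −0.11 for *ULK3*, −0.0939 and −0.072 for *WIPI1*, −0.064 and −0.037 for *ATG7*, −0.035 and −0.05 for *SQSTM1*, and 0.25 and 0.25 for *GABARAPL1*, which ran from −0.22 to 0.15 over the leave-out fits. *GABARAPL1* in RIS+shHMGA1 against RIS was at −0.019 on the libraries of the contrast and ran from −0.053 to 0.26, and *ATG5* in RIS against growing from −0.038 to 0.41. The interaction was not run on the libraries of a contrast, since it needs all groups.

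Replicate numbers are shared by the groups. Same-numbered libraries deviated together in 24 of 36 pairs (r over 0.1, with r from −0.594 to 0.828), and 8 of 24 libraries correlated best with their own number. The deviations were taken from group means that include growing 4 and RIS 2, and the lowest and highest r were both between growing and RIS libraries. The numbers were not taken to pair the samples, but this check cannot decide whether they do. With a replicate block, RIS against growing called 1 gene in all, RIS+shHMGA1 against RIS called 1637 in all, 2 of the 10 genes and 10 of the 54, and in shHMGA1 against growing *BECN1* was at 0.0076 and *WIPI1* at 0.013.

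Depth was not limiting for the 10 genes, whose lowest count in any library was 100.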

Other observations

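The replicates numbered 5 and 6 had the lowest *HMGA1* among the hairpin libraries, 58.1 and 54.4 CPM in shHMGA1 against 98.7 to 143 CPM in the other 4, and 60.0 and 75.1 CPM in RIS+shHMGA1 against 197 to 262 CPM. In the same RIS+shHMGA1 libraries *SQSTM1* was highest, at 1526 and 1806 CPM against 1009 to 1211 CPM, while *BNIP3L*, at 422 and 389 CPM against 526 to 664 CPM, and *ATG5*, at 83.0 and 71.4 CPM against 107 to 129 CPM, were lowest. Replicates 5 and 6 of RIS, which carry no hairpin, also had the highest *SQSTM1* of their group, at 1499.9 and 1150 CPM, and, among the 5 libraries other than RIS 2, the lowest *BNIP3L*, at 283 and 368 CPM, and *ATG5*, at 40.4 and 61.7 CPM. The untreated groups did not follow this throughout. *SQSTM1* of replicates 5 and 6 was 602 and 614 CPM in shHMGA1, where replicate 3 had 649 CPM. In growing it was 392 and 514 CPM, 392 CPM being the lowest. *ATG5* was 59.7 and 55.9 CPM in shHMGA1, within the range of the others, and 62.5 and 33.4 CPM in growing. *BNIP3L* was lowest in these replicates of shHMGA1, at 117 and 138 CPM. In growing it was 146 and 102 CPM, 102 CPM being the lowest. *GABARAPL1* was lower in these replicates of shHMGA1, at 58.5 and 67.1 CPM against 85.5 to 99.7 CPM. In growing they lay at 61.6 and 81.5 CPM, also below the others except growing 4. In RIS+shHMGA1 they were instead the highest, at 59.8 and 68.6 CPM against 50.4 to 59.7 CPM. In RIS they lay at 52.7 and 54.0 CPM, above the others except RIS 2. These libraries were singled out after their values were seen, and no test was made.

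The autophagy genes that rose and fell in RIS+shHMGA1 against shHMGA1 differed in transcript length and GC content, a comparison chosen after seeing the data. Of the 10 genes and the pathway list together, the 16 that rose had a median canonical transcript of 2.71 kb with 43.3% GC, and the 8 that fell 6.48 kb with 59.7% GC. Over all genes tested, the 2615 that rose had medians of 2.24 kb and 45.4% GC and the 2605 that fell 4.25 kb and 49.4% GC. *GABARAPL2*, which rose, has a transcript of 0.97 kb, and *ULK1*, which fell, of 5.32 kb with 64.2% GC, whereas *TFEB*, which fell too, has 2.33 kb with 64.7% GC.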
